A study of Rattus norvegicus with 42 samples.

Results

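The genes described here encode 10 nuclear receptors of liver metabolism in the rat: Nr1i2, Nr1i3, Rxra, Ppara, Nr1h3, Thra, Thrb, Esrra, Nr5a2 and Nr2f2. They were taken by gene name from the 26258 named genes of the table of elongating RNA polymerase II (pSer2 Pol2) occupancy, and their Ensembl identifiers located all 10 among the 22929 genes with RNA-Seq counts. Of 3981 regions of glucocorticoid receptor (GR) enrichment, 15 were centred within 50 kb of a transcription start site (TSS) of a member, and these lay near 7 of the 10 genes.

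Livers came from adult male Sprague Dawley rats that had all undergone bilateral adrenalectomy, had received dexamethasone, a synthetic glucocorticoid, after surgery, and had recovered on saline drinking water with corticosterone (CORT) that was withdrawn before the infusions. CORT, the main glucocorticoid of the rat, was infused either as hourly pulses (PULS) or at a constant rate matched for dose (CONS), and other rats received vehicle (VEH). ChIP-Seq of GR and of pSer2 Pol2 sampled 5 groups of 2 libraries each: the pulse peak at 140 min (PEAK_140), the following nadir at 180 min (NADIR_180), constant CORT at 140 min and 180 min (CONS_140, CONS_180), and VEH. Each ChIP library pooled several animals, and the VEH pair was 1 library of pulsatile vehicle at 140 min (VEH replicate 1) and 1 at 180 min (VEH replicate 2), so that at CONS the effect of CORT and of the vehicle's pattern cannot be told apart in the ChIP data. RNA-Seq was done at 180 min in 4 groups of 3 libraries, with a separate VEH group for each pattern. In the sample titles the library numbers of pulsatile CORT, VEH and CONS form separate runs for GR, and those of CORT and VEH do for RNA. The labels do not say what the numbers stand for, and their part in the results was not tested. The comparisons ask how each receptor gene responded to CORT and whether the response depended on the pattern of delivery.

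Total tags per library ranged from 2051977 to 6715803 for GR and from 4938473 to 9326927 for pSer2 Pol2, and total reads from 3956379 to 7777219 for RNA. The 2 NADIR_180 GR libraries differed from each other, with medians over all regions of 1.33 and -0.48 on the log2 scale. Hepatocyte markers summed to between 93222 and 145857 CPM (read counts scaled to the library total) in the 12 RNA libraries, and albumin alone took 7.07% to 11.8% of the reads. The low values were in CONS VEH, the control of the CONS responses. Its hepatocyte markers spanned 93222 to 136049 CPM, and no other group fell below 127857 CPM. Albumin took 8.35% in its replicate 1, 7.07% in its replicate 2 and at least 10.5% in every other library. Whether this bears on the CONS RNA results was not tested. The summed stellate cell and fibroblast markers were lower with CORT, at 43.3 to 46.7 CPM in CONS CORT against 63.0 to 86.4 CPM in CONS VEH, and at 50.2 to 65.8 CPM in PULS CORT against 71.2 to 89.8 CPM in PULS VEH. Pdgfrb fell with CONS by 1.29 ± 0.20 on the log2 scale and Dcn of the same list rose by 1.16 ± 0.34, so that the sum does not stand for each marker, and none of the list was called with PULS. Of those 6 markers Col1a2 was at 0 in every library, and of the 4 cholangiocyte markers Krt19 was. The part of these cells in the RNA results was not tested, and in whole liver fewer cells of a type and less RNA per cell cannot be told apart.

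Nuclear receptors are transcription factors that bind DNA directly, most of them under the control of a small lipid-soluble ligand. Nr1i2 (PXR) and Nr1i3 (CAR) sense drugs, bile acids and other foreign or potentially toxic compounds and switch on cytochrome P450 genes. Rxra (RXR alpha) is the partner with which these receptors, Ppara, Nr1h3 and the thyroid hormone receptors form heterodimers. Ppara drives fatty acid oxidation in fasting, Nr1h3 (LXR alpha) responds to oxysterols and drives lipid synthesis, and Thra and Thrb respond to thyroid hormone. Esrra (ERR alpha), Nr5a2 (LRH-1) and Nr2f2 (COUP-TFII) are known as orphan receptors, with roles in mitochondrial genes, bile acid synthesis and the identity of venous and stromal cells respectively. GR is itself a nuclear receptor and binds as a dimer to the glucocorticoid response element (GRE), in which the cores ACA and TGT stand 3 bases apart.

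The sequences shown first are those that the study's motif scan placed in GR regions near the members, because GR contacts DNA at this element. The motif list used here was shortened, and 5 of the 15 regions had a row in it, with 13 sequences of 12 bases, of which 4 were GRE matches in 3 regions. Capitals mark the bases that match the ACA and TGT cores, and all are written 5′ to 3′ on the rn6 plus strand.
Nr1i3 region 10.2 kb upstream, first match (plus strand): agcACAgtcTGT
Nr1i3 region 10.2 kb upstream, second match (minus strand): ACAgtcTGTtca
Ppara region 10.39 kb downstream (plus strand): aggACtcagTGT
Ppara region 16.05 kb downstream (minus strand): ACtggcTGTcct
The Nr1i3 pair shares the same 9 bases and matched the cores at all 6 positions, whereas each Ppara sequence matched 5 of 6. A match is a description of letters and does not show which bases GR occupied.

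The promoters of the 3 members whose mRNA rose with constant CORT are shown next, as the 250 bases before the RefSeq TSS on GRCr8, to set the sequence beside genes that changed together. Searched on both strands were AGAACA, the core hexamer of a GRE, AGGTCA, the hexamer bound by many nuclear receptors, and the full palindrome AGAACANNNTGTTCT, which contains the first. Capitals mark a match.
Nr1i2 promoter: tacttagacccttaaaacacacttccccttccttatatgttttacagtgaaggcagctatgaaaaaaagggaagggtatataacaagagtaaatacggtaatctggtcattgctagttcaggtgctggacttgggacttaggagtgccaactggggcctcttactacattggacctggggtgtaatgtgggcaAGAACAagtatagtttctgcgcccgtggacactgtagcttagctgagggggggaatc
Nr1i3 promoter: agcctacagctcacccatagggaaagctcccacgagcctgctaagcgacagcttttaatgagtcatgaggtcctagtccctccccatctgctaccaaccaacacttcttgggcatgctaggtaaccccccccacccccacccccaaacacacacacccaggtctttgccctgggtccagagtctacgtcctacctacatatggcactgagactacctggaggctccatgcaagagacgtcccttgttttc
Ppara promoter: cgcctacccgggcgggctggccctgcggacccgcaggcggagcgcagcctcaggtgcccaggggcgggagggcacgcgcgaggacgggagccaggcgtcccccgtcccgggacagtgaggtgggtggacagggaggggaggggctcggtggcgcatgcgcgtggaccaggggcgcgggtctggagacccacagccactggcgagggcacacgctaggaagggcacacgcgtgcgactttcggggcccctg
These span chr11:75965467-75965716, chr13:86165170-86165419 and chr7:118712357-118712606, all on the plus strand, with 46% G and C in Nr1i2, 55.6% in Nr1i3 and 76% in Ppara. RefSeq held 10 promoters for 9 of the 10 members. AGAACA occurred in 1 of these, that of Nr1i2, 57 b before the TSS, against 17.5% of all 33469 promoters. AGGTCA occurred in 1, that of Nr5a2, 134 b before the TSS, against 14.1% of all promoters. The full palindrome occurred in none of the 10 and in 0.0120% of all promoters.

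GR regions lay near the xenobiotic receptors, their partner, Ppara, both thyroid receptors and Nr2f2. Of the members, 7 of 10 (70%) had a region within 50 kb, against 16.9% of all named genes and 23.5% of the 14067 named genes that were also tested in RNA. Within 20 kb it was 5 of 10 (50%), against 8.74% and 12.9%. Nr1i3, Ppara and Thrb had 3 regions each, Nr1i2 and Rxra 2 each, and Thra and Nr2f2 1 each. Nr1h3 and Nr5a2 had none within 100 kb, and the nearest region to Esrra was 64.84 kb away.

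**Figure D1:**
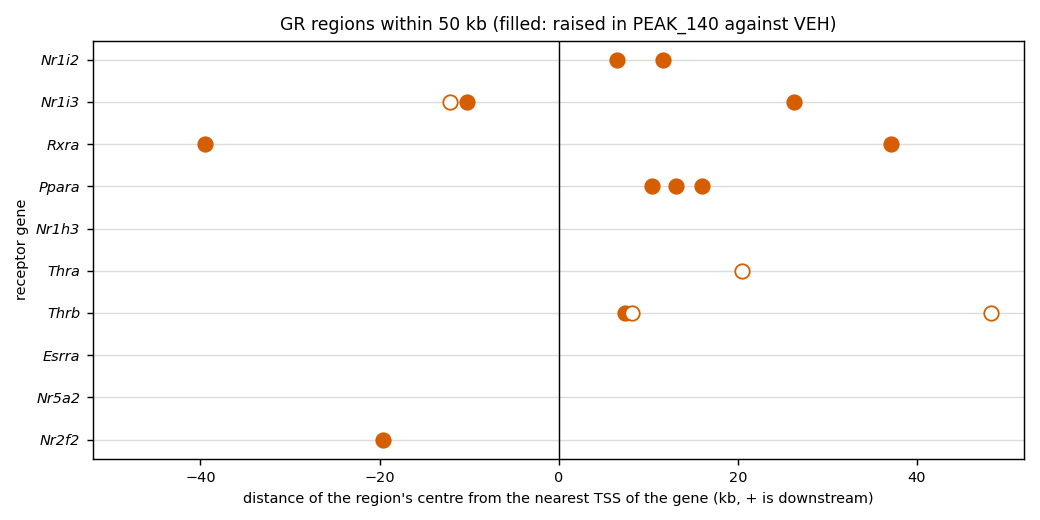
Position of the 15 GR regions relative to the nearest TSS of each receptor gene, in kb, with downstream to the right. Filled circles are the 11 regions raised in PEAK_140 against VEH and open circles the other 4, and the rows of Nr1h3, Esrra and Nr5a2 are empty.

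Throughout, a ChIP region was called when limma, fitted to the deposited log2 values of all regions in all 10 libraries of that assay, gave a Benjamini-Hochberg adjusted p below 0.05 with a change above 1.5-fold. The regions are a merged list of peaks that the authors called in these same libraries. Each of the 15 was listed for at least 1 CORT group and none for VEH. A rise against VEH was thus in part set by the choice of regions. Nr1i3 12.09 kb was listed for CONS_180 only, Thra 20.52 kb for CONS_140 only and Thrb 8.22 kb for PEAK_140 only. In PEAK_140, 11 of the 15 regions were raised against VEH, beside 78.6% of all regions. In NADIR_180 only 1 was, beside 7.44%. In CONS_140 and in CONS_180 12 were, beside 64.7% and 67.9%. None was lowered in any group. The 4 comparisons share the same VEH libraries. Both libraries of the group lay above both VEH libraries at 14, 10, 13 and 14 of the 15 regions in the same order, beside 88.5%, 63.5%, 74.7% and 83.6% of all regions. The lower quartile over all regions was -0.73 and -0.64 in the NADIR_180 libraries and -0.84 and -1.01 in the VEH libraries. A NADIR_180 library at its low values can therefore still count as above VEH, and the part of this in the 10 was not tested. The median log2 change of the 15 was 4.83 in PEAK_140, 1.07 in NADIR_180, 5.22 in CONS_140 and 4.68 in CONS_180, beside 4.17, 0.84, 3.38 and 3.46 over all regions. The authors' peak lists held 13 of the 15 for PEAK_140, 0 for NADIR_180, 13 for CONS_140 and 11 for CONS_180, beside 80.6%, 1.81%, 43.3% and 61.0% of all regions. Values thus lay higher over the regions as a whole, and with each library centred on its own median the calls were 2, 0, 1 and 1 in that order. Those were Nr1i2 6.54 kb, raised in 3 groups, and Nr1i3 12.09 kb, lowered in PEAK_140 relative to the library median.

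Between times and patterns, 11 of the 15 were higher in PEAK_140 than in NADIR_180, beside 68.8% of all regions, and 10 were higher in CONS_180 than in NADIR_180, beside 49.6%. With each library centred on its median these counts were 1, Thrb 48.29 kb in the opposite direction, and 0. PEAK_140 and CONS_140 were called different at 0 of the 15 by limma, beside 0.0502% of all regions, and 1 passed an unadjusted p below 0.05, as did 14.1% of all. CONS_140 and CONS_180 were called different at 0 of the 15, beside 0% of all regions, and 0 passed an unadjusted p below 0.05, as did 4.87% of all. The fall from 140 min to 180 min was greater in PULS than in CONS at 8 of the 15 regions, beside 43.6% of all, and at 0 with centring. Leaving out 1 library moved that last count to between 3 and 10: it was 3 without PEAK_140 replicate 1 or either CONS_180 library, 4 without CONS_140 replicate 2, and 5 without PEAK_140 replicate 2. Nr1i2 6.54 kb and Nr1i2 11.65 kb were called in each of those 5 fits. CONS_180 against NADIR_180 gave 6 without CONS_180 replicate 2, and PEAK_140 against CONS_140 gave 1, Thrb 7.39 kb, without CONS_140 replicate 1.

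The region 6.54 kb into Nr1i2, the xenobiotic sensor PXR, lay at chr11:65028330-65028955 (rn6) in intron 1. Its log2 values were -0.26 and -0.47 in VEH, 7.0 and 6.69 in PEAK_140, 3.78 and 3.74 in NADIR_180, 7.18 and 6.88 in CONS_140, and 6.31 and 6.63 in CONS_180. All 8 CORT libraries lay above both VEH libraries, and NADIR_180 lay between VEH and the rest without overlap. The change against VEH was 7.21 ± 0.37 (SE, n = 2 per group) in PEAK_140, with an adjusted p of 6.2e-06 by limma, and 7.40 and 6.83 in CONS_140 and CONS_180. It was the 1 region near a member that was raised in NADIR_180, by 4.12 ± 0.37 (adjusted p = 7.0e-04 by limma). That call was lost in a fit of the 4 VEH and NADIR_180 libraries alone, and with centring. Under centring, the region kept its calls in PEAK_140, CONS_140 and CONS_180. The fall from peak to nadir was 3.09 ± 0.37 (adjusted p = 4.0e-04), and under centring the sign turned to -0.34.

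A second Nr1i2 region, 11.65 kb into the same intron at chr11:65033387-65034121, was near the VEH level at the nadir. Its values were -0.66 and -0.85 in VEH, 5.15 and 5.40 in PEAK_140, 0.75 and -0.43 in NADIR_180, 4.48 and 4.76 in CONS_140, and 4.99 and 5.49 in CONS_180. The NADIR_180 pair lay close to VEH, at a change of 0.92 ± 0.60 that was not called, whereas the other 3 CORT groups were raised by 5.38 to 6.03. The fall from 140 min to 180 min exceeded that in CONS by 5.74 ± 0.85 (adjusted p = 0.0047 by limma).

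Nr1i3, the constitutive androstane receptor CAR, had intergenic regions 12.09 kb and 10.2 kb upstream and a region 26.27 kb downstream. The region at 10.2 kb (chr13:89575763-89576400), which holds the Nr1i3 GRE matches shown above, had values of 1.43 and -0.74 in VEH, 4.87 and 5.12 in PEAK_140, 2.01 and -0.30 in NADIR_180, 5.36 and 5.81 in CONS_140, and 4.69 and 5.59 in CONS_180. VEH and NADIR_180 overlapped and lay below the 6 other libraries. Changes against VEH were 4.64 ± 0.92 in PEAK_140 and 5.23 and 4.79 in CONS_140 and CONS_180, all called. The region at 26.27 kb (chr13:89612294-89612922) lay in an intron of another gene and was nearest to Fcer1g, a subunit of immunoglobulin receptors, and it was raised by 6.40 ± 0.86 in PEAK_140. Its values were -0.61 and -0.80 in VEH, 5.54 and 5.85 in PEAK_140, 2.35 and -0.37 in NADIR_180, 4.46 and 5.04 in CONS_140, and 5.34 and 4.38 in CONS_180. The region at 12.09 kb (chr13:89573880-89574505) was nearest to Pcp4l1, and in it the PEAK_140 libraries, at 3.57 and 1.12, were not clear of VEH, at 0.64 and 1.58. It passed the test against VEH in CONS_180, at 2.27 ± 0.90 (adjusted p = 0.048), where the libraries stood at 2.77 and 3.99, and not in CONS_140, where they stood at 3.04 and 3.25. The CONS_180 call was lost in 8 of the 10 fits that left out 1 library, all but those without a PEAK_140 library, and with centring.

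Rxra, the shared partner, had a region 39.51 kb upstream and one 37.08 kb downstream in intron 1. At 37.08 kb (chr3:6248471-6249264) the values were -0.74 and -0.92 in VEH, 5.61 and 3.59 in PEAK_140, 0.71 and -0.51 in NADIR_180, 5.76 and 3.76 in CONS_140, and 4.38 and 4.40 in CONS_180. The 6 libraries of PEAK_140, CONS_140 and CONS_180 lay above both NADIR_180 libraries, which lay above VEH, the one at -0.51 only narrowly. At 39.51 kb (chr3:6171905-6172650) they were -0.72 and -0.90 in VEH, 3.44 and 4.60 in PEAK_140, 3.05 and -0.49 in NADIR_180, 5.09 and 2.97 in CONS_140, and 3.44 and 4.30 in CONS_180, where 1 NADIR_180 library reached the range of the raised groups. Both Rxra regions were raised in PEAK_140, CONS_140 and CONS_180, by 4.68 to 5.59. At 39.51 kb the CONS_140 call was lost without CONS_140 replicate 1 (adjusted p = 0.055) and the CONS_180 call without CONS_180 replicate 2. Within 100 kb Rxra had 9 regions, of which the nearest outside the limit, at 50.19 kb, was already at 3.94 and 4.27 in VEH and at 5.92 and 6.49 in PEAK_140, while the region just inside the limit, 48.29 kb from a Thrb TSS, was at 1.47 and 1.24 in VEH and at 4.73 and 2.03 in PEAK_140.

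Ppara, the fatty acid sensor, carried 3 regions in a row in intron 1, at 10.39 kb, 13.05 kb and 16.05 kb from its second TSS. At 13.05 kb (chr7:126654663-126655338) the values were -0.66 and -0.85 in VEH, 4.82 and 5.20 in PEAK_140, 1.97 and -0.43 in NADIR_180, 5.09 and 4.69 in CONS_140, and 4.13 and 4.40 in CONS_180. The CONS_180 pair lay below both other raised groups, but CONS_140 and CONS_180 were not called different here or at any of the 15 regions. At 10.39 kb (chr7:126652081-126652608), where VEH was at -0.78 and -0.96, PEAK_140 stood at 4.44 and 4.47, NADIR_180 at -0.72 and 1.64, CONS_140 at 4.53 and 4.18, and CONS_180 at 2.99 and 2.50. At 16.05 kb (chr7:126657692-126658317), where VEH was at -0.76 and 1.13, PEAK_140 stood at 3.72 and 4.90, NADIR_180 at -0.69 and -0.53, CONS_140 at 4.41 and 3.80, and CONS_180 at 3.42 and 3.70. The highest NADIR_180 library thus lay below every PEAK_140, CONS_140 and CONS_180 library in each of the 3 regions. All 3 regions were raised in PEAK_140 (4.12 to 5.77), CONS_140 (3.92 to 5.64) and CONS_180 (3.37 to 5.02), and none in NADIR_180. In the fit without NADIR_180 replicate 2, the regions at Ppara 13.05 kb, Nr1i3 26.27 kb and Rxra 39.51 kb joined the nadir call of Nr1i2, making 4, and without NADIR_180 replicate 1 the Ppara 10.39 kb region joined it, making 2. The single library left is assumed there to vary like the other groups.

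Of the 4 regions near the thyroid hormone receptors none was raised in PEAK_140, CONS_140 and CONS_180 alike. The Thra region, 20.52 kb downstream at chr10:86689486-86690013, lay inside intron 1 of Nr1d1, the clock repressor REV-ERB alpha that is encoded on the opposite strand, 1019 b from the Nr1d1 TSS. Its values were -0.78 and -0.91 in VEH, -0.58 and 2.59 in PEAK_140, 1.36 and 2.00 in NADIR_180, 3.90 and 2.75 in CONS_140, and 2.55 and 2.65 in CONS_180. It was raised in CONS_140 (4.17 ± 1.01) and CONS_180 (3.44 ± 1.01) and not called in PEAK_140 (1.85 ± 1.01), where the 2 libraries disagreed and the call appeared (3.44, adjusted p = 0.0097) without PEAK_140 replicate 1. The CONS_180 call was lost without either VEH or either CONS_180 library. PEAK_140 against CONS_140 was -2.32 ± 1.01 there and was not called.

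Of the 3 Thrb regions, that at 7.39 kb (chr15:8906803-8907428) was measured from the TSS at chr15:8914501, and the others from that at chr15:9086282. The pSer2 Pol2 value used for Thrb starts at the second of these TSSs. The region at 7.39 kb had values of -0.83 and 0.37 in VEH, 5.06 and 5.19 in PEAK_140, 2.29 and -0.59 in NADIR_180, 4.50 and -0.94 in CONS_140, and 2.73 and 4.40 in CONS_180. It was called in PEAK_140 (5.35 ± 1.65) and in no other group, with the CONS_140 pair on both sides of VEH. The PEAK_140 call was lost without VEH replicate 1 or either PEAK_140 library, with adjusted p of 0.071, 0.062 and 0.061, and CONS_140 was called without its second library (4.73, adjusted p = 0.015). The region at 48.29 kb (chr15:9037728-9038255) was called in CONS_140 alone (2.92 ± 0.88), where it stood at 4.79 and 3.77, and its NADIR_180 libraries, at 3.10 and 4.05, also lay above both VEH libraries. That call was lost without VEH replicate 2 (adjusted p = 0.070) or CONS_140 replicate 1 (0.11), and PEAK_140 was called without PEAK_140 replicate 2 (3.38, adjusted p = 0.0075). The region at 8.22 kb (chr15:9077870-9078265) was not called in any group, its PEAK_140 change of 3.07 ± 1.28 having an adjusted p of 0.0502, and was called there in 5 of the 10 fits that left out 1 library. Nr2f2 had a region 19.66 kb upstream (chr1:131479822-131480447) with values of -0.76 and -0.94 in VEH, 4.40 and 2.81 in PEAK_140, 0.71 and -0.53 in NADIR_180, 4.79 and 4.88 in CONS_140, and 4.25 and 4.68 in CONS_180, raised in all but the nadir.

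**Figure D2:**
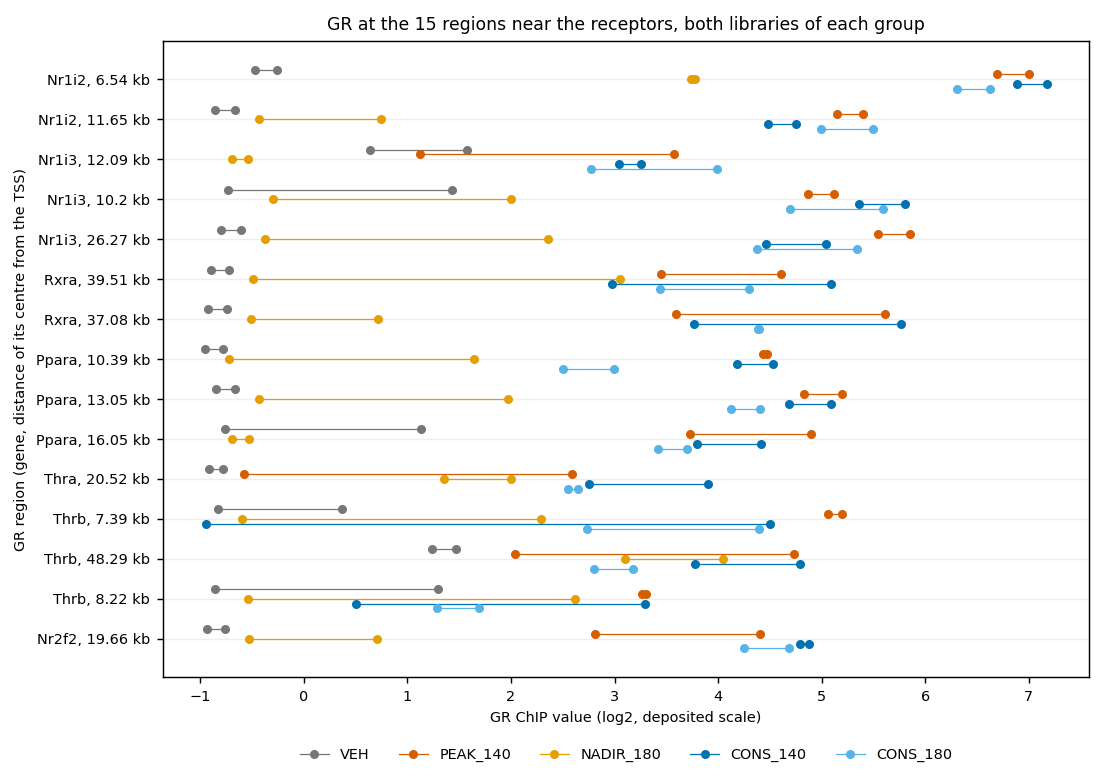
GR ChIP values on the deposited log2 scale at the 15 regions, 1 point per library with a line joining the 2 libraries of a group. VEH lies at the left and PEAK_140, CONS_140 and CONS_180 at the right for most regions, and both NADIR_180 libraries lie above both VEH libraries at 10 of the 15, by the widest gap at Nr1i2 6.54 kb, where they sit at 3.78 and 3.74. At most of those 10, 1 NADIR_180 library lies only just above VEH.

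Elongating polymerase was read over at most the first 10 kb of each transcript, in 18 distinct regions of the 10 genes. The value given is that of the member's region with the highest mean, and a gene was called if any of its regions was. Against VEH, 2 members, Nr1i2 and Nr1i3, had a raised region in CONS_140, beside 0.648% of 16500 genes tested. None was called in either direction in PEAK_140, NADIR_180 or CONS_180 by limma, beside 0.382%, 0% and 0.182% of genes with a raised region. The share of genes with a lowered region is not given here. At an unadjusted p below 0.05 in any region there were 6 members in CONS_140, 1 in PEAK_140, 1 in NADIR_180 and 2 in CONS_180, beside 6.18%, 5.17%, 1.55% and 2.96% of all genes. In CONS_140, 9 of the 10 changes were above 0 and their median was 1.02 on the log2 scale, beside 0.15 over all regions tested. The medians in PEAK_140, NADIR_180 and CONS_180 were -0.16, 0.28 and 0.21, beside -0.05, 0.01 and 0.01. The members' medians take 1 region per gene, that with the highest mean, and the others take every region tested. These pairs of medians are therefore not like for like, and no set matched by occupancy was compared.

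Nr1i2 occupancy was 7.72 and 7.11 (log2) in VEH, 8.98 and 8.76 in PEAK_140, 7.33 and 7.66 in NADIR_180, 9.54 and 9.06 in CONS_140, and 8.99 and 8.93 in CONS_180. The NADIR_180 pair lay within the VEH range, and the 6 libraries of the other groups all lay above it. The change was 1.89 ± 0.33 in CONS_140 (3.70-fold, adjusted p = 0.025 by limma), and 1.45 ± 0.33 in PEAK_140 and 1.55 ± 0.33 in CONS_180, with adjusted p of 0.087 and 0.15. The PEAK_140 change passed the test with centring (1.54, adjusted p = 0.0098) or among the upper 50% of regions by mean value (adjusted p = 0.021), and the CONS_180 change was also called under both settings. The region on which this was read, chr11:65022100-65032100, contains the GR region at 6.54 kb.

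Nr1i3 occupancy was 7.16 and 6.64 in VEH, 7.60 and 7.22 in PEAK_140, 7.35 and 7.40 in NADIR_180, 9.22 and 8.75 in CONS_140, and 8.35 and 7.97 in CONS_180. Unlike at its GR regions, the PEAK_140 pair lay next to NADIR_180, and both constant groups lay above them. The change was 2.09 ± 0.34 in CONS_140 (4.25-fold, adjusted p = 0.017), 1.26 ± 0.34 in CONS_180 (adjusted p = 0.40) and 0.51 ± 0.34 in PEAK_140 (adjusted p = 0.999). PEAK_140 was below CONS_140 by a log2 difference of -1.58 ± 0.34 that was not called (adjusted p = 0.13).

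The CONS_140 calls depended on single libraries. They were lost for both genes in a fit of the 4 VEH and CONS_140 libraries alone, and also without VEH replicate 2, NADIR_180 replicate 1 or 2, CONS_140 replicate 1 or CONS_180 replicate 2. Leaving out VEH replicate 1, PEAK_140 replicate 1 or 2 or CONS_180 replicate 1 left 1, Nr1i3, and leaving out CONS_140 replicate 2 made 5, adding Ppara, Rxra and Esrra. The size of the change did not depend on the libraries of a group outside the comparison, and for Nr1i2 it ranged from 1.58 to 2.19 and for Nr1i3 from 1.83 to 2.35 over these fits. The library left in a group of 1 is assumed to vary like the rest.

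Among the others Ppara had 7.38 and 7.08 in VEH, 7.78 and 7.74 in PEAK_140, 7.30 and 7.0 in NADIR_180, 8.82 and 8.35 in CONS_140, and 7.35 and 7.36 in CONS_180. Its CONS_140 pair lay above the 8 other libraries, at 1.36 ± 0.32 (adjusted p = 0.11), and the CONS_180 pair was back in the VEH range. These values start at its first TSS, whereas its GR regions were measured from the second. The region of the second TSS was at 7.06 and 6.685 in VEH, 7.29 and 7.32 in PEAK_140, 6.33 and 5.86 in NADIR_180, 8.20 and 7.96 in CONS_140, and 7.04 and 7.0 in CONS_180. There PEAK_140 lay above NADIR_180 by 1.21 ± 0.32, which was not called (adjusted p = 0.26 by limma). Rxra was at 9.53 and 8.96 in VEH and at 10.7 and 10.1 in CONS_140, a change of 1.15 ± 0.33 (adjusted p = 0.25). Nr2f2 was at 7.21 and 6.50 in VEH, 6.44 and 5.92 in PEAK_140, 7.79 and 7.19 in NADIR_180, 8.26 and 7.63 in CONS_140, and 7.31 and 6.77 in CONS_180, with PEAK_140 below the 8 other libraries and no call. Esrra was at 7.27 and 6.55 in VEH, 6.62 and 6.46 in PEAK_140, 7.45 and 7.30 in NADIR_180, 8.24 and 7.46 in CONS_140, and 7.69 and 7.20 in CONS_180. Nr1h3, Nr5a2, Esrra and Thrb had differences from VEH of between -0.54 and 0.94 without a call. Thra was at 3.06 to 3.43 in all 10 libraries, at or close to a lowest value of 3.06 that several libraries shared in this region. A change of it could thus have gone undetected at this depth.

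Between times and patterns 0 members had a called region by limma in any of the 5 comparisons. The shares of all genes called were 0.509% for PEAK_140 against NADIR_180, 0.176% for CONS_180 against NADIR_180, 0% for CONS_140 against CONS_180, 0.0303% for PEAK_140 against CONS_140, and 0.0667% for the test of whether the time effect depended on pattern. At an unadjusted p below 0.05 in any region there were 4, 3, 3, 5 and 2 members in the same order, beside 5.75%, 2.42%, 3.25%, 9.11% and 6.73% of all genes. In PEAK_140 against CONS_140 all 10 members lay lower in PEAK_140 in their region with the highest mean. The median was -0.75, beside -0.26 over all regions, which again is not a like set. With the replicate number as a block among the 8 CORT libraries, Nr1i3 and Nr2f2 were called in that comparison, and 0 were without the block in the same libraries. Without CONS_140 replicate 2, whose values lay below those of replicate 1 for every member, 4 were called in that comparison (Esrra, Nr1i3, Nr2f2 and Ppara) and 2 in the test by pattern (Nr1h3 and Nr2f2). With each library centred on its median, 1 member was called in that comparison, 2 in PEAK_140 against NADIR_180 and 1 in CONS_180 against NADIR_180.

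**Figure D3:**
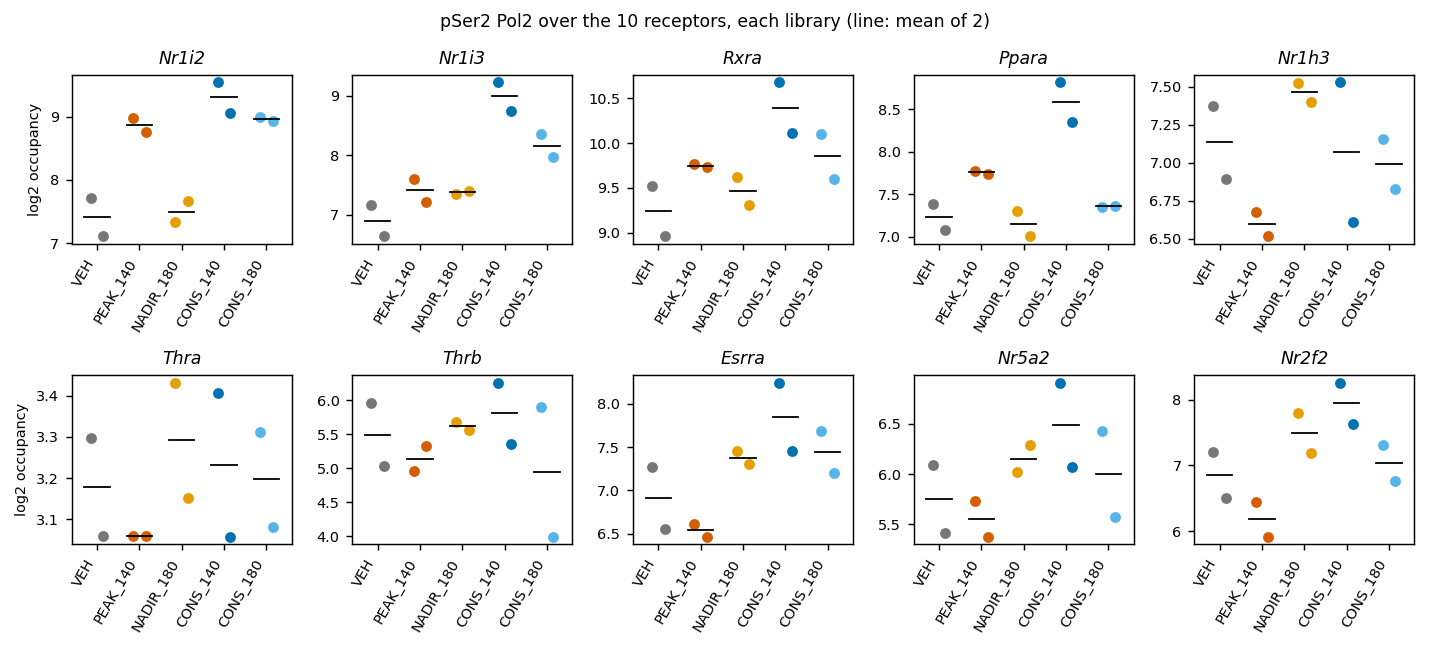
pSer2 Pol2 occupancy (log2, deposited scale) of the 10 receptor genes, 1 point per library and a line at the mean of the 2 libraries of each group, on axes that differ between panels and do not start at 0. CONS_140 has the highest mean for 8 genes, and Nr1i2 stands at 8.98 and 8.76 in PEAK_140 against 7.33 and 7.66 in NADIR_180.

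In RNA a gene was called when edgeR's quasi-likelihood test, fitted to 14092 genes with more than 10 reads in all, gave an adjusted p below 0.05 and a change above 1.5-fold. The labels number the replicates without saying that each is 1 animal, so p-values measure the spread between these libraries. With pulsatile CORT 1 of the 10 receptors rose, Nr1i2, beside 1.79% of all genes, and 0 fell, beside 2.44%. The count at an unadjusted p below 0.05 was 4, all upwards, beside 19.8% of all genes in either direction, and DESeq2 called 2, Nr1i2 and Nr1i3. With constant CORT 3 rose, Nr1i2, Nr1i3 and Ppara, beside 4.45%, and 0 fell, beside 4.75%, with 5 up and 1 down at an unadjusted p below 0.05, beside 25.3% of all genes, and the same 3 called by DESeq2. The median log2 change of the members was 0.17 with PULS and 0.43 with CONS, beside -0.01 for all genes in both.

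Nr1i2 was at 92, 64.8 and 73.0 CPM in PULS VEH, 161, 151 and 139 CPM in PULS CORT, 93.0, 70.8 and 74.2 CPM in CONS VEH, and 252, 239 and 246 CPM in CONS CORT. Neither CORT group overlapped its VEH group, and every CONS CORT library lay above every PULS CORT library. The means rose from 76.6 ± 14 to 150.4 ± 10.8 CPM (SD, n = 3) with PULS, a log2 change of 0.97 ± 0.14 (SE, adjusted p = 6.7e-04 by edgeR), and from 79.3 ± 11.9 to 245.4 ± 6.5 CPM with CONS, a log2 change of 1.62 ± 0.14 (adjusted p = 1.2e-06). The responses differed by 0.65 ± 0.19 on the log2 scale, which was not called (adjusted p = 0.16). In the plot of receptor responses Nr1i2 was the gene called in both patterns.

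Nr1i3 was at 17.2, 29.3 and 33.4 CPM in PULS VEH, 61.0, 63.6 and 29.1 CPM in PULS CORT, 54.4, 43.4 and 32.8 CPM in CONS VEH, and 105, 86.7 and 77.6 CPM in CONS CORT. The constant groups did not overlap, and the pulsatile groups overlapped through 1 PULS CORT library. The change was 1.03 ± 0.26 with CONS (2.04-fold, adjusted p = 0.0135 by edgeR) and 0.95 ± 0.27 with PULS (adjusted p = 0.0545, not called). The CONS call was lost without CONS CORT replicate 1 (adjusted p = 0.061) or CONS VEH replicate 3 (0.074). The PULS call appeared with DESeq2 (0.016), with no filter on low counts (0.0052), and without PULS CORT replicate 3 (0.011) or CONS VEH replicate 1 (0.043).

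Ppara was at 109, 73.6 and 88.2 CPM in PULS VEH, 138, 90.8 and 103 CPM in PULS CORT, 147, 49.4 and 81.4 CPM in CONS VEH, and 303, 282 and 207 CPM in CONS CORT. Only the CONS CORT group stood clear of its control, at 1.5 ± 0.28 (2.83-fold, adjusted p = 0.0020 by edgeR), and the PULS change was 0.30 ± 0.29 (adjusted p = 0.62). The responses differed by 1.20 ± 0.40, which was not called (adjusted p = 0.21).

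**Figure D4:**
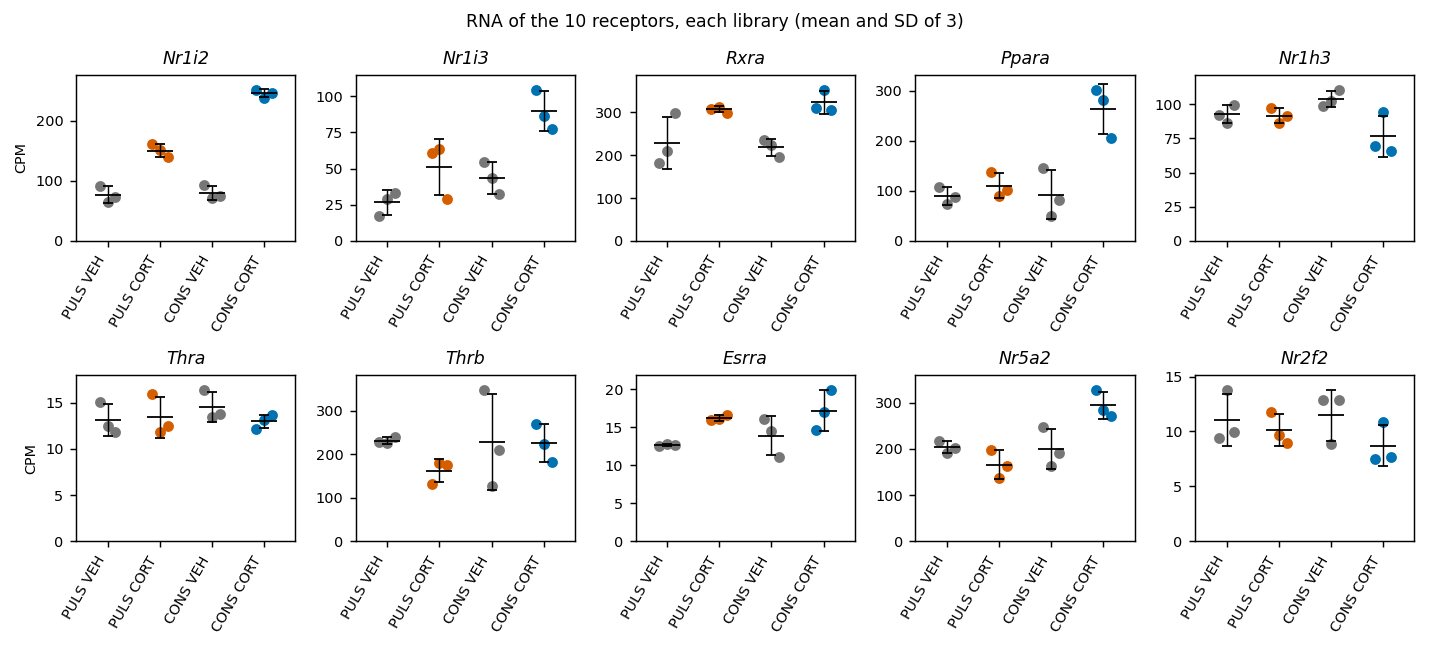
RNA of the 10 receptors in CPM, 1 point per library with the mean and SD of the 3 libraries of each group, on axes that start at 0 and differ between panels. Nr1i2 is higher in both CORT groups than in VEH, and Ppara is higher in CONS CORT only, at 207 to 303 CPM.

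The other receptors moved less. Rxra was at 181, 209 and 298 CPM in PULS VEH, 309, 313 and 299.8 CPM in PULS CORT, 235, 225 and 196 CPM in CONS VEH, and 311, 353 and 306 CPM in CONS CORT, with no overlap in either pattern. Its CONS change of 0.57 ± 0.15 had an adjusted p of 0.021 and fell just under the 1.5-fold limit, and its PULS change of 0.42 ± 0.15 an adjusted p of 0.12, which without PULS VEH replicate 3 became 0.65 (adjusted p = 0.013). Nr5a2, a regulator of bile acid synthesis, was at 218, 191 and 202 CPM in PULS VEH, 198, 136 and 163 CPM in PULS CORT, 247, 163 and 190.4 CPM in CONS VEH, and 327, 284 and 271 CPM in CONS CORT. It lay higher than its control in CONS, at 0.55 ± 0.16 (adjusted p = 0.029, under the fold limit), and not in PULS, at -0.30 ± 0.16 (adjusted p = 0.32), and the responses differed by 0.85 ± 0.22 (adjusted p = 0.12).

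Nr1h3, the oxysterol receptor, was at 92.2, 86.3 and 99.6 CPM in PULS VEH, 97.4, 86.3 and 91.0 CPM in PULS CORT, 98.6, 102 and 111 CPM in CONS VEH, and 69.3, 93.9 and 65.9 CPM in CONS CORT. The CONS change of -0.44 ± 0.13 had an adjusted p of 0.036 without reaching 1.5-fold, and passed both limits without CONS CORT replicate 2 (-0.62, adjusted p = 0.0038). Thrb varied widely in CONS VEH, at 348, 127 and 209 CPM, and was at 132 to 179.5 CPM in PULS CORT against 225 to 240.4 CPM in PULS VEH, a change of -0.51 ± 0.25 (adjusted p = 0.27). Thra (11.8 to 16.4 CPM over the 12 libraries), Esrra (11 to 19.9 CPM) and Nr2f2 (7.51 to 13.8 CPM) had changes between -0.40 and 0.36 in both patterns, none called.

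**Figure D5:**
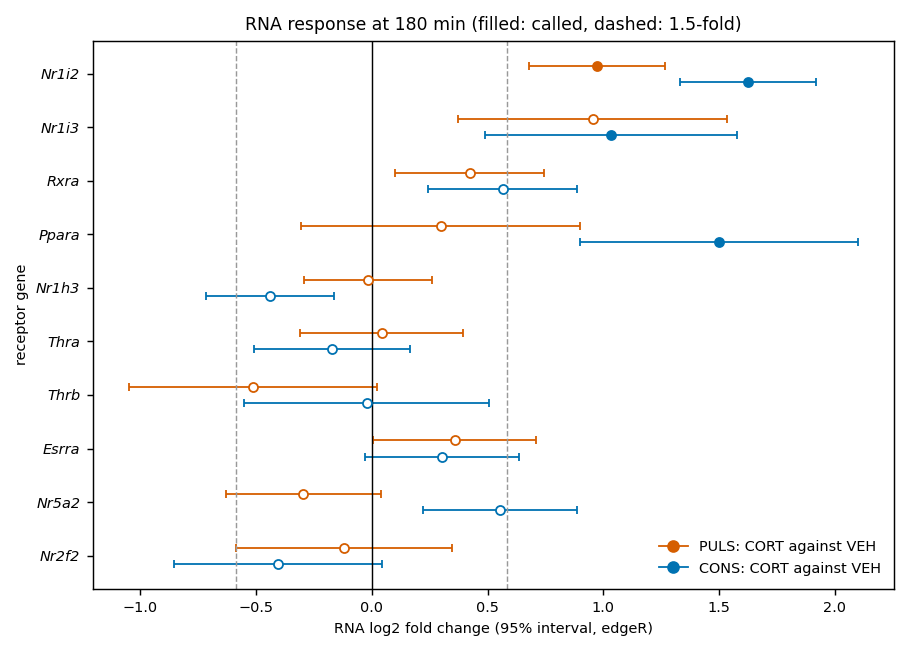
Log2 fold change of each receptor's RNA with CORT against the VEH group of the same pattern, with 95% intervals from edgeR, for PULS and CONS. Filled points are the called changes, Nr1i2 in both patterns and Nr1i3 and Ppara in CONS, and dashed lines mark 1.5-fold.

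The difference between the 2 responses was called for 0 of the 10 members by edgeR, beside 0.0284% of all genes. At an unadjusted p below 0.05 there were 4, beside 12.4% of all genes, and DESeq2 called 2, Nr1i2 and Nr5a2. CONS VEH replicate 1, the deepest library at 7777219 reads, was the highest of its group for 8 of the 10 members. Without it 3 differences were called, Nr1i2 (0.79, adjusted p = 0.044), Nr5a2 (1.03, 0.022) and Ppara (1.71, 0.021), and the CONS calls became 5 with Nr5a2 and Rxra added, as they also did without CONS CORT replicate 3. Without CONS VEH replicate 1 the PULS calls became 2 with Nr1i3 added. CONS VEH against PULS VEH was called for 0 members by edgeR and by DESeq2, beside 0% of all genes called. At an unadjusted p below 0.05 there was 1, Nr1i3, at 0.72 ± 0.27, beside 9.13% of all genes.

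The Nr1d1 gene, within which the Thra region lay, is given because that region cannot be assigned to either gene by position. Its RNA was at 10.9, 18.1 and 5.39 CPM in PULS VEH, 6.16, 7.91 and 6.96 CPM in PULS CORT, 11.6, 12.3 and 8.51 CPM in CONS VEH, and 22.3, 19.3 and 18.3 CPM in CONS CORT. It rose with CONS by 0.88 ± 0.27 (adjusted p = 0.044 by edgeR) and changed by -0.73 ± 0.32 with PULS (adjusted p = 0.21), while Thra changed by -0.17 and 0.04. The pSer2 Pol2 of Nr1d1 did not run the same way at 180 min. Against VEH it changed by -0.31 ± 0.36 in CONS_180 and by 1.18 ± 0.36 in NADIR_180. At 140 min the changes were 0.34 in CONS_140 and -0.20 in PEAK_140. CONS_180 lay below NADIR_180 by a log2 difference of -1.50 ± 0.36 (adjusted p = 0.35 by limma), and none of these was called. Thra and Nr1d1 overlap on opposite strands, and whether strand was used in counting is not given in the sources used here, so that the counts of both are uncertain where they overlap.

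Other members of the superfamily and the genes on which the receptors act were read from fixed lists, and listed genes with no row or too few reads were not analysed here. For the counts of all these lists, 1.79% of all genes rose and 2.44% fell with PULS, and 4.45% rose and 4.75% fell with CONS. Of 27 other nuclear receptors tested, 0 rose with PULS, and with CONS 2 rose, Nr1d1 and the corepressor Nr0b2 (1.39 ± 0.42). With PULS 2 fell and with CONS 3, among them Rarb, a retinoic acid receptor, in both patterns and Nr6a1 with CONS. Rarb fell by 1.31 ± 0.18 with PULS and by 1.13 ± 0.18 with CONS on the log2 scale. Of 12 coregulators, Ppargc1a, a coactivator of Ppara and Esrra, rose by 0.98 ± 0.21 with PULS and by 2.93 ± 0.21 with CONS, with a difference of 1.95 ± 0.29 that was called (adjusted p = 0.032 by edgeR). Ppargc1b, a related coactivator, rose with CONS (1.23 ± 0.19) and was at 0.40 ± 0.20 with PULS (difference not called, adjusted p = 0.22), and the corepressor Nrip1 fell in both, by 0.84 ± 0.15 and 0.77 ± 0.15. The coregulator Tbl1xr1 fell with PULS.

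The target lists did not move as 1 block. By edgeR the difference between the 2 responses was called for 0 genes of every target list, beside 0.0284% of all genes. DESeq2 called it for genes of some lists. Of 15 genes known as Nr1i2 or Nr1i3 targets, 3 rose and 0 fell with PULS and 2 rose and 3 fell with CONS, with list medians of 0.09 and -0.07. Por, the electron donor of the cytochrome P450 enzymes, rose by 1.68 ± 0.16 with PULS and by 2.71 ± 0.16 with CONS, from means of 59.6 and 64.9 CPM in VEH to 191 and 427 CPM. Cyp3a9 rose with PULS (1.34 ± 0.29) and was at 0.09 ± 0.26 with CONS (difference not called, adjusted p = 0.18 by edgeR). Its CORT groups overlapped, at 47.7 to 72.8 CPM in PULS CORT and 47.6 to 83.7 CPM in CONS CORT. Its VEH groups did not, at 19.8 to 31.7 CPM in PULS VEH and 36.5 to 79.3 CPM in CONS VEH. Cyp3a62 rose with CONS (1.24 ± 0.23) and was at 0.61 ± 0.24 with PULS. Cyp3a23/3a1 also rose with PULS, and Cyp2a1, Cyp2c7 and Cyp2c11 fell with CONS. Of the 15, 8 were higher in CONS VEH than in PULS VEH at an unadjusted p below 0.05 by edgeR, and 0 were lower. The share of all genes, in either direction, was 9.13%. Of the list, edgeR called 0 and DESeq2 called 2 between the VEH groups. Whether this bears on the PULS and CONS responses of the list was not tested. The cytochrome P450 genes belong to families of close paralogs, between which reads may be divided.

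Of 20 Ppara targets, 1 rose and 0 fell with PULS, Ehhadh of peroxisomal oxidation, and 1 rose and 2 fell with CONS, with list medians of 0.10 and -0.08. Cpt1a, the gate of mitochondrial fatty acid oxidation, rose by 1.12 ± 0.19 with CONS and was at -0.05 ± 0.19 with PULS. Pdk4, a kinase that restrains glucose oxidation, fell by 1.22 ± 0.26 with CONS, and Plin2, a lipid droplet protein, by 0.87 ± 0.17. Of 13 Nr1h3 targets 0 were called with PULS by edgeR (1 at an unadjusted p below 0.05, 0 by DESeq2), and 0 rose and 5 fell with CONS, with list medians of 0.14 and -0.68. These 5 were Scd (-3.80 ± 0.79), Fasn (-2.51 ± 0.40), Srebf1 (-1.54 ± 0.28), Lpcat3 and Cyp7a1, of which the first 3 make or control the making of fatty acids and Cyp7a1 is the rate-limiting enzyme of bile acid synthesis. Scd varied widely in CONS VEH, from 202 to 1286 CPM, and ran from 19.5 to 91.3 CPM in CONS CORT. In PULS VEH it ran from 103 to 284 CPM and in PULS CORT from 137 to 763 CPM. The difference between the responses was not called for Scd, Fasn or Srebf1 (adjusted p = 0.089, 0.12 and 0.089 by edgeR). At an unadjusted p below 0.05 it was passed by 6 of the 13, all downwards, beside 12.4% of all genes, and DESeq2 called 2.

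Of 9 thyroid hormone targets 1 rose and 1 fell with PULS, Idh3a and Me1, and 2 rose and 3 fell with CONS, Cpt1a and Klf9 (2.02 ± 0.21) against Thrsp, Gpd2 and Me1 (-1.51 ± 0.16). Of 7 Nr5a2 targets 0 were called with PULS by edgeR (2 at an unadjusted p below 0.05, 0 by DESeq2), and Nr0b2 rose and Cyp7a1 fell with CONS. Of 8 Esrra targets Idh3a rose with PULS and Pdk4 fell with CONS. The lists overlap, with Cpt1a, Pdk4, Cyp7a1, Idh3a and Nr0b2 each in more than 1 of them.

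Over the 12 RNA libraries, log2 CPM of Nr1i2 ran with that of Ppara at a Pearson r of 0.86, with Nr1i3 and Rxra at 0.77 each, and with Nr1h3 at -0.68. Nr5a2 ran with Ppara at 0.85. The genes whose pattern was most like Nr1i2 were Itpr1, a calcium channel (0.99), Pxmp4, a peroxisomal membrane protein (0.99), and Por (0.98). Those most like Nr1i3 were Epas1 (0.93), Jdp2 (0.92) and Csnk1e (0.91), and those most like Ppara were Fam180a (0.96), Cdk11b (0.96) and Hs3st3b1 (0.95). The 12 libraries fall into 4 groups and share their depth and composition between genes, so these values describe the libraries and are not tests.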

How the data were processed

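GR and pSer2 Pol2 ChIP-Seq and RNA-Seq of rat liver were analysed from the deposited tables. The authors aligned trimmed reads (Trimmomatic 0.36) to rn6, subtracted input tags and wrote log2 tag values per region with HOMER 4.9.1. Per the file headers these were scaled to total tags, while the methods name tags within binding regions for GR. Low deposited log2 values are drawn towards the region's mean, so folds against VEH are fitted values and not bounds. The authors' RNA values are raw counts per Ensembl gene (featureCounts 1.6.2). Columns holding the authors' own fold changes and p-values were not used.

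Log2 values were fitted with limma 3.58.1 (variance trend, all 10 libraries, 3981 GR regions, and 38315 of 60999 pSer2 Pol2 regions with any variation). Counts were fitted with edgeR 4.0.16 (TMM, quasi-likelihood, more than 10 reads over 12 libraries), and with DESeq2 1.42.0 as an alternative, in R 4.3.3. CPM used TMM library sizes. Adjusted p-values (Benjamini-Hochberg) cover all features of an assay, and errors of log2 changes are SE. The pipeline was tested on simulated data. Named are all members, at most 3 leading genes of each list, and the 3 genes of closest pattern to each member whose RNA was called, with others given by name for small counts after their values were seen. Members and lists were chosen with earlier results of these data known. A gene of the lists is not reported here.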

Additional observations from a re-analysis of the deposited data

Results flagged for a closer look

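At 8 GR regions near the receptors the change from 140 min to 180 min differed between pulsatile and constant CORT in limma's test of that difference, which is why they are listed. On the log2 scale, PEAK_140 minus NADIR_180 exceeded CONS_140 minus CONS_180 by 2.53 at Nr1i2 6.54 kb, 5.74 at Nr1i2 11.65 kb, 3.70 at Nr1i3 10.2 kb and 4.82 at Nr1i3 26.27 kb. It did so by 4.13 at Rxra 37.08 kb, 3.62 at Ppara 13.05 kb, 4.37 at Ppara 16.05 kb and 3.15 at Nr2f2 19.66 kb. Of all regions 43.6% were called in that direction, the median over all regions was 3.11, and with each library centred on its median none of the 8 was called.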

How the results depend on the processing

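Correlations of deviations between same-numbered libraries ran from -0.027 to 0.072 for GR and -0.049 to 0.081 for RNA, which gave no sign of pairing by number. For pSer2 Pol2 they ran from 0.155 to 0.553, all above 0.1. With only 2 numbers per group the pairing could not be settled for GR or pSer2 Pol2. With the replicate number as a block, the RNA counts stayed at 1, 3, 0 and 0, the sign for Thrb with CONS turned to 0.0180, and pSer2 Pol2 PEAK_140 against CONS_140 gave 2 members (Nr1i3, Nr2f2), any comparison between CORT groups 2, against 0 for the same libraries without the block, a fit added after seeing the data.

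Centring each library on its median lowered the GR counts to 2 in any group against VEH, 2, 0, 1 and 1 in PEAK_140, NADIR_180, CONS_140 and CONS_180, 1 in any comparison between CORT groups, 1 for PEAK_140 against NADIR_180, 0 for CONS_180 against NADIR_180 and 0 for the time effect by pattern. Since it removes the shift common to all regions, signs turned for PEAK_140 against NADIR_180 at Nr1i2 6.54 kb (-0.34), Nr1i3 12.09 kb (-0.48), Rxra 39.51 kb (-0.69) and Thrb 8.22 kb (-1.19), and for PEAK_140 and CONS_140 at Nr1i3 12.09 kb (-3.38, -2.07), Ppara 16.05 kb (-0.49, -0.19), Thrb 48.29 kb (-2.59, -1.19) and Thrb 8.22 kb (-1.55, -2.43). They also turned for PEAK_140 at Thra 20.52 kb (-2.76) and Nr2f2 19.66 kb (-0.16), and for CONS_140 at Thrb 7.39 kb (-2.10) and in Thra pSer2 Pol2 (-0.090). For pSer2 Pol2, centring gave 1 in PEAK_140, 1 in CONS_180, 3 between any CORT groups, 2 for PEAK_140 against NADIR_180, 1 for CONS_180 against NADIR_180 and 1 for PEAK_140 against CONS_140, and the upper 50% of regions gave 1 in PEAK_140 and 1 in CONS_180.

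Within 20 kb, 9 GR regions were called in any group and 7 in CONS_140, and within 100 kb 18 in PEAK_140, 2 in NADIR_180 and 19 in CONS_180. Fits of only the libraries compared gave 0 for GR in NADIR_180 and 0 for pSer2 Pol2 in CONS_140 and against VEH. For RNA, no filter on low counts and DESeq2 each gave 2 with PULS and 2 for the difference in response, and dropping the fold threshold gave 6 with CONS.

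Leaving out 1 library at a time, with the lone library left in a group assumed to vary like the others, gave 12 to 14 GR regions in any group against VEH, 11 to 12 in PEAK_140, 1 to 4 in NADIR_180, 10 to 13 in CONS_140 and 9 to 12 in CONS_180. Between CORT groups, where this was added after seeing the data, it gave 10 to 13 in any comparison, 9 to 12 for PEAK_140 against NADIR_180, 6 to 10 for CONS_180 against NADIR_180, 0 to 1 for PEAK_140 against CONS_140 and 3 to 10 for the time effect by pattern. For pSer2 Pol2 it gave 0 to 5 against VEH, 0 to 5 in CONS_140, 0 to 5 between any CORT groups, 0 to 1 for CONS_140 against CONS_180, 0 to 4 for PEAK_140 against CONS_140 and 0 to 2 by pattern. For RNA it gave 1 to 2 with PULS, 2 to 5 with CONS and 0 to 3 for the difference. Signs turned in these ranges: difference in RNA response for Nr1i3 (-0.20 to 0.32), Rxra (-0.089 to 0.29) and Esrra (-0.19 to 0.080), PULS RNA for Nr1h3 (-0.065 to 0.038), Thra (-0.11 to 0.15) and Nr2f2 (-0.25 to 0.073), and CONS RNA for Thrb (-0.31 to 0.42). They turned in pSer2 Pol2 CONS_140 for Nr1h3 (-0.52 to 0.40), Thra (-0.12 to 0.23) and Thrb (-0.14 to 0.78), pSer2 Pol2 PEAK_140 for Thrb (-0.81 to 0.11) and Nr5a2 (-0.54 to 0.14), GR PEAK_140 against NADIR_180 at Thra 20.52 kb (-2.25 to 0.91) and Thrb 48.29 kb (-1.54 to 1.16), and GR CONS_140 at Thrb 7.39 kb (-0.72 to 4.73). The cause of these changes was not tested. Of the remaining values for single genes and regions, 1261 kept direction and side of the threshold, 62 lost a call and 43 gained one. ChIP groups of 2 limit what could be called, and Thra pSer2 Pol2 lay too near the lowest value of its region to show a change.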
